A study of Mus musculus with 2 samples.

Results

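Amphiregulin (Areg), heparin-binding EGF-like growth factor (Hbegf) and betacellulin (Btc), which are ligands of the epidermal growth factor (EGF) receptor family, were followed across sorted mouse lung cells together with the receptors Egfr, Erbb2 and Erbb3, the intracellular inhibitor Errfi1 and the sheddase Adam17. These 8 genes were chosen by symbol, and each was found among the 27998 genes of the count tables. Single cells had been sorted from lungs of male mice as EpCAM-positive cells lacking CD31, CD34, CD45, CD24 and Sca-1, a gate meant for alveolar type 2 (AT2) cells. There was 1 library of cells labelled WT and 1 of cells labelled IP-/- (IPKO), the genotype lacking the prostacyclin receptor, which is encoded by Ptgir. The labels used here give no injury, treatment, age, strain or number of mice. With 1 library per genotype no test between genotypes was possible, so every interval below is a 95% interval for counting error only, and a difference between libraries has no replicate check.

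AT2 cells make surfactant and serve as progenitors of the thin alveolar type 1 cells that exchange gas. EGF family ligands are made as membrane-bound precursors, and sheddases such as ADAM17 cut them loose. Areg binds EGFR alone, while Hbegf and Btc bind both EGFR and ERBB4. ERBB2 binds no known ligand and ERBB3 has a weak kinase, so both work as partners in receptor dimers, and ERRFI1 (also called MIG6) binds the active kinase and shuts it down. Amphiregulin is known for its role in epithelial repair, and AT2 cells that pass through a keratin-rich transitional state after injury are among its known sources.

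The count tables held 8924 barcodes with 127287281 unique molecular identifiers (UMIs, each marking 1 captured transcript) labelled WT, and 10014 barcodes with 137471506 UMIs labelled IPKO. Filtering kept 6745 and 8072 cells with medians of 18057 and 16665 UMIs. Ptgir went against the labels: AT2 cells of the library labelled WT held 0 of its UMIs and those of the library labelled IPKO held 290. A tag near the transcript's end can lie outside a deleted part, so UMIs in the library labelled IPKO check neither label. That does not cover the 0 UMIs labelled WT, and whether the 2 libraries were exchanged was not tested. Directions are therefore given between labels only. The libraries had 79 barcodes in common, of which 16 were kept in both, and none carried the same counts. In AT2 cells, summed marker lists of other lineages stood at 22.6 and 25.4 CPM for lymphocytes, 10.8 and 12.2 for endothelial, 2.84 and 4.45 for myeloid and 0.843 and 2.49 for mesenchymal cells. Most of the first came from Cd79b (2594 and 3069 UMIs) and most of the second from Egfl7 (1125 and 1359 UMIs), while the defining genes Pecam1 and Ptprc had 55 and 57 and 7 and 20 UMIs.

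Cells were divided by their own RNA. AT2 cells had at least 10% of their UMIs from Sftpc, the surfactant protein C gene, and numbered 6115 labelled WT and 7076 labelled IPKO, with a median Sftpc share of 21.1% and 20.9%. Keratin-high cells were the 5% of cells, after non-epithelial and mixed barcodes were set aside, with the largest summed share of Krt7, Krt8, Krt18 and Krt19 (at least 914 CPM, counts per 1000000 UMIs), which gave 325 and 395 cells that were kept apart from the AT2 class. Of these, 292 and 343 also reached the Sftpc share of AT2 cells. Within 10% of the keratin bound, 58 cells lay inside and 80 outside in the library labelled WT, against 75 and 115 for IPKO, and the class is a range along a scale and not a cell type. Non-epithelial cells carried at least 4 markers of another lineage with less Sftpc, and were 113 cells labelled WT (62 endothelial, 17 lymphocyte, 19 myeloid, 15 mesenchymal) and 250 labelled IPKO (59, 97, 77 and 17). They had escaped a gate that removes such cells, so their numbers describe the sort and not the lung.

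In the GENCODE annotation (vM21, GRCm38), Areg lies at chr5:91139599-91148432 on the plus strand and Btc on the same chromosome at chr5:91357261-91402994 on the minus strand. Egfr lies at chr11:16752203-16918158 (plus), Erbb2 at chr11:98412470-98437716 (plus), Erbb3 at chr10:128567523-128589652 (minus), Errfi1 at chr4:150853919-150868892 (plus) and Adam17 at chr12:21323509-21373632 (minus). All are protein-coding, and genes on the opposite strand overlap Egfr, Erbb2, Errfi1 and Adam17. Mir6917 overlaps Erbb3 on the same strand. The sources used here do not say how the counting used strand. Whether reads of a neighbour were counted to any of these genes was not tested.

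The prostacyclin receptor is known to raise cyclic AMP, whose factor CREB binds the cyclic AMP response element TGACGTCA. Promoters were therefore searched for this palindrome, and for the AP-1 site TGACTCA on both strands, in windows from 250 bases before to 50 bases after the transcript start (RefSeq, GRCm38.p6). Of the 8 genes, 6 had a window in that table, 7 windows in all, while Hbegf and Erbb3 had none and were not searched. The cyclic AMP element was found in 2 of the 7, at Areg and at a start of Errfi1, against 588 of 32851 windows of all genes (1.79%). No AP-1 site was found in the 7, against 1709 of all windows (5.20%). A match is a string of letters and not a shown site of binding. The 2 windows that held the element are printed 5′ to 3′ on the plus strand, up to the base before the start, with the element in capitals. The Areg stretch is chr5:91139349-91139598, with the element's first base 61 bases before the start, and the Errfi1 stretch is chr4:150854820-150855069, with its first base 51 bases before the start.
Areg: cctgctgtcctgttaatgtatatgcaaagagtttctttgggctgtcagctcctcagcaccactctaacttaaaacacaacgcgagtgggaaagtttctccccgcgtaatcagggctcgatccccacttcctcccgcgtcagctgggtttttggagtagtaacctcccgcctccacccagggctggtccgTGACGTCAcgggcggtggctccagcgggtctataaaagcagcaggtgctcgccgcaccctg
Errfi1: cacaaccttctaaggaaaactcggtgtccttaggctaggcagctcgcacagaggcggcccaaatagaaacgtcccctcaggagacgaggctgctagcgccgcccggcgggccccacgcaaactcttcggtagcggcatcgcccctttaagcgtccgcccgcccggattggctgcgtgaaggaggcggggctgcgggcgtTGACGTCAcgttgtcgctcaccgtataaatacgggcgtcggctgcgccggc

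The gate left few non-epithelial cells, so the part of all Areg that came from each lineage describes the sort. Among the classes compared, Areg was at its highest level in the keratin-high cells. Its level in AT2 cells was 16.5 CPM (15.7 to 17.2) in the library labelled WT and 33.7 CPM (32.7 to 34.7) in the other, labelled IPKO. In keratin-high cells the levels were 235 (222 to 247) and 327 (313 to 342). That is 14.2-fold and 9.71-fold above AT2 cells of the same library, or 3.83 (3.73 to 3.93) and 3.28 (3.20 to 3.36) on the log2 scale. These levels are shares of a class's UMIs, and because 1 tag is counted per transcript they do not depend on transcript length.

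**Figure D1:**
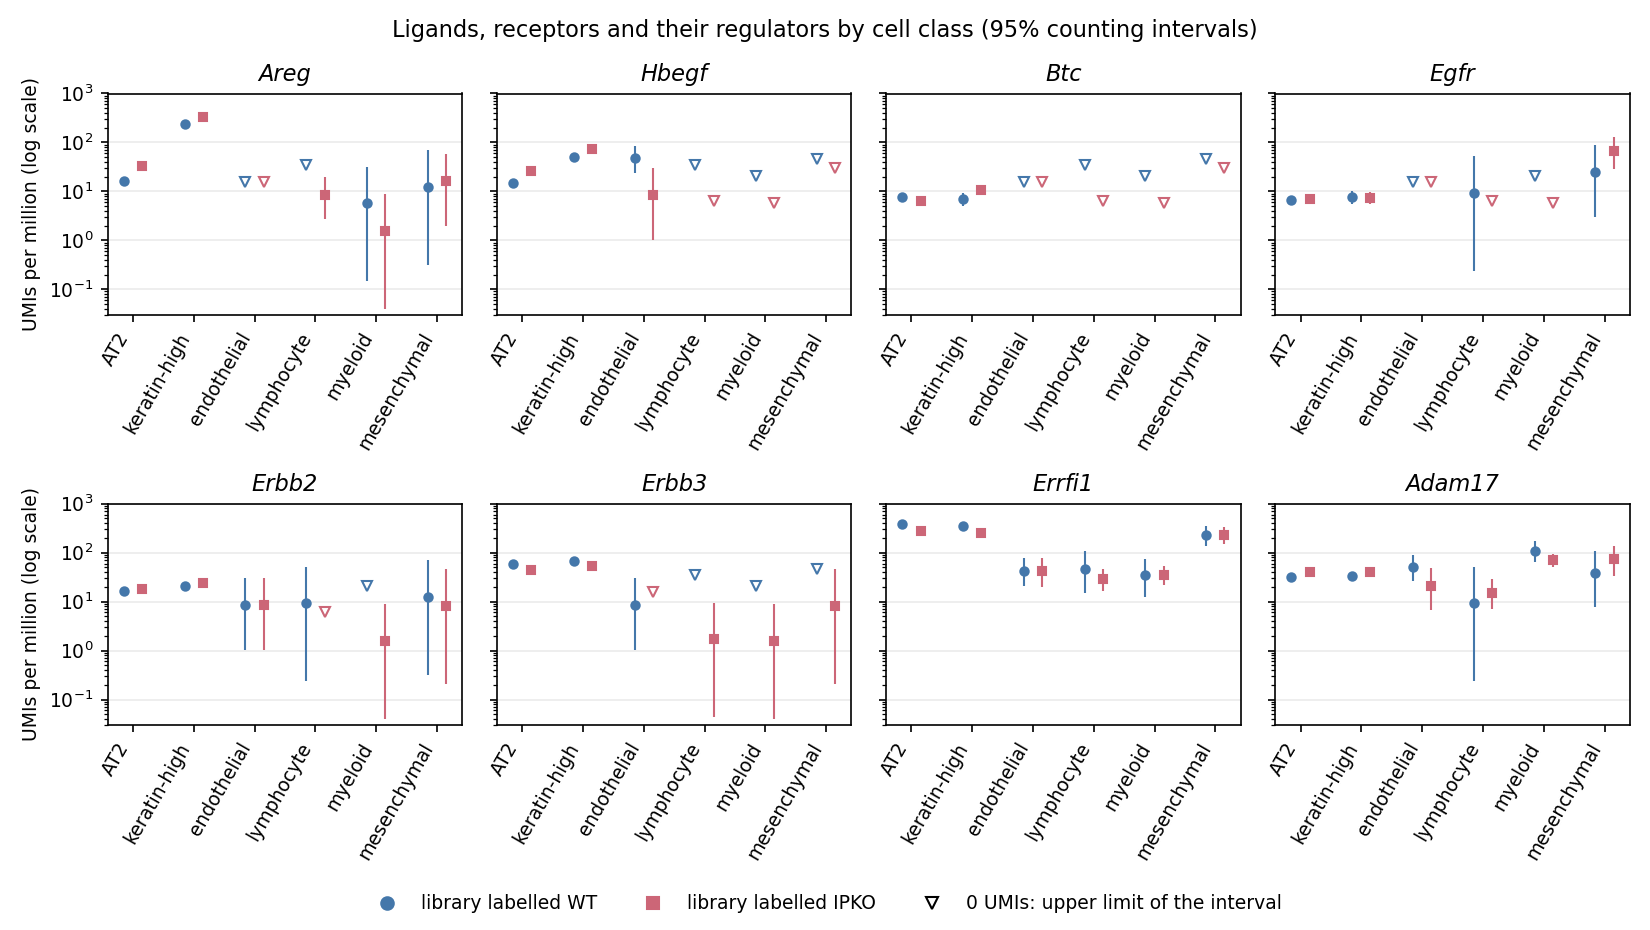
Level of each of the 8 genes (CPM, log scale) by cell class, circles for the library labelled WT and squares for the library labelled IPKO, with bars for 95% counting intervals and open triangles for the upper limit where no UMI was counted. Areg stands highest in keratin-high cells (235 and 327), Erbb3 is near its floor outside the epithelium, and Errfi1 is the most abundant of the 8 in AT2 cells.

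Detection followed the level. At least 1 Areg UMI was present in 13.4% (12.6 to 14.3) of AT2 cells in the library labelled WT and 19.5% (18.6 to 20.5) in that labelled IPKO. Among keratin-high cells the shares were 60.6% (55.1 to 66.0) and 68.9% (64.0 to 73.4). Thinned to 3000 UMIs per cell, they were 3.41% and 6.89% of AT2 cells and 32.3% and 38.3% of keratin-high cells, so the classes differed at equal depth as well. Non-epithelial cells, at medians of 3865 and 4962 UMIs, had a UMI in 1.77% and 2.80%. The 177 and 305 cells that fell in no class held Areg at 17.6 and 31.7 CPM, near the AT2 level.

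Keratin-high cells were 5.05% of AT2 and keratin-high cells together in the library labelled WT and 5.29% in the library labelled IPKO. They held 41.3% and 33.4% of the Areg UMIs of that pool. Of the 175 cells labelled WT with 5 or more Areg UMIs, 88 were keratin-high (50.3%), and of 371 labelled IPKO, 128 were (34.5%). Most cells held none: 84.2% and 77.9% of the pool had 0 Areg UMIs, while single cells reached 52 and 60. The 5% of cells with the most Areg UMIs held 73.4% and 66.7% of them. Genes of like abundance were less gathered, since Adam17, with 3864 UMIs labelled WT against 3260 of Areg, had 23.4% in such cells, and Erbb3, with 5921 labelled IPKO against 6292, had 21.7%.

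**Figure D2:**
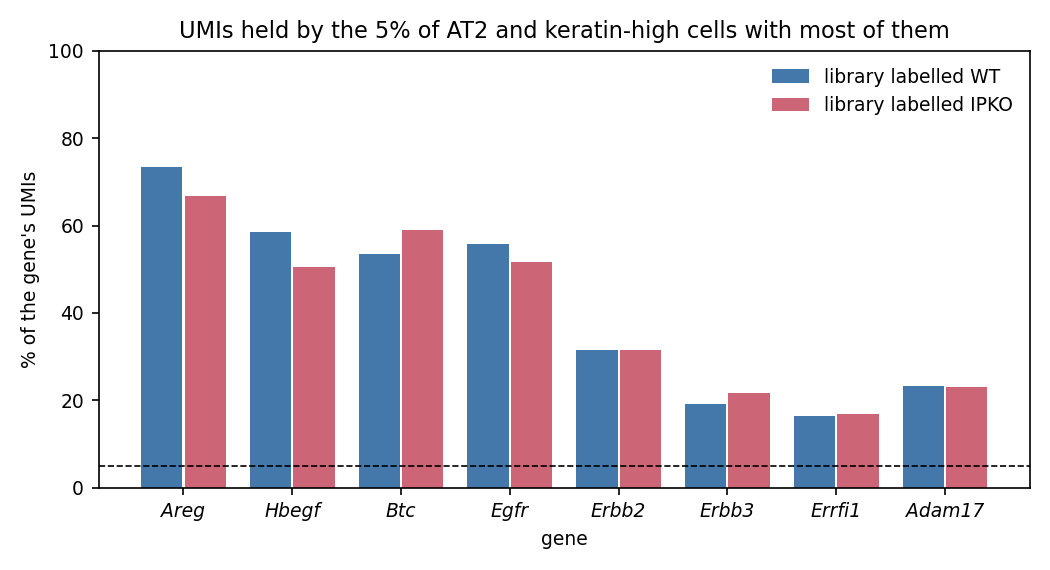
Share of each gene's UMIs (%) held by the 5% of AT2 and keratin-high cells with the most UMIs of that gene, by library, with a dashed line at 5%, where an even spread would lie. Areg is the most gathered at 73.4% and 66.7%, and Errfi1 the least at 16.5% and 17.0%, but few UMIs also gather in few cells, so only genes with like totals can be compared.

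The increase of Areg along the keratin scale was graded and not a step at the class bound. From the 50% of cells with the least keratin to the top 2%, its level went from 7.33 through 18.7, 36.1, 74.6 and 143 to 381 CPM in the library labelled WT. In the library labelled IPKO the same 6 bins held 15.7, 35.9, 68.5, 109, 220 and 500.5. Each step was larger than the counting intervals of its neighbours in both libraries. Hbegf took a similar but shallower course, from 11.7 to 74.0 and from 21.1 to 105. The receptor Erbb3 went from 55.9 (54.1 to 57.7) to 65.0 (54.8 to 76.5) and from 42.5 (40.9 to 44.2) to 57.7 (48.6 to 68.0), so the intervals were apart labelled IPKO only. Erbb2 likewise went from 16.4 (15.4 to 17.4) to 17.7 (12.6 to 24.2) and from 17.9 (16.9 to 19.0) to 28.1 (21.8 to 35.5). Errfi1 was lower in the top bin than in the lowest, at 318 against 376 and 225 against 264. Its course was not steady, since it was highest in the bin from 90% to 95%, at 405 and 286. In keratin-high cells with at least 10% Sftpc, Errfi1 differed from AT2 cells by a log2 value of -0.10 (-0.17 to -0.03) labelled WT. Labelled IPKO the value was -0.01 (-0.09 to 0.06). Early-response genes also differed along the scale, from 3132 to 4457 and from 5660 to 7036 CPM in the lowest and top bins, and levels within bins of these genes are given below.

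**Figure D3:**
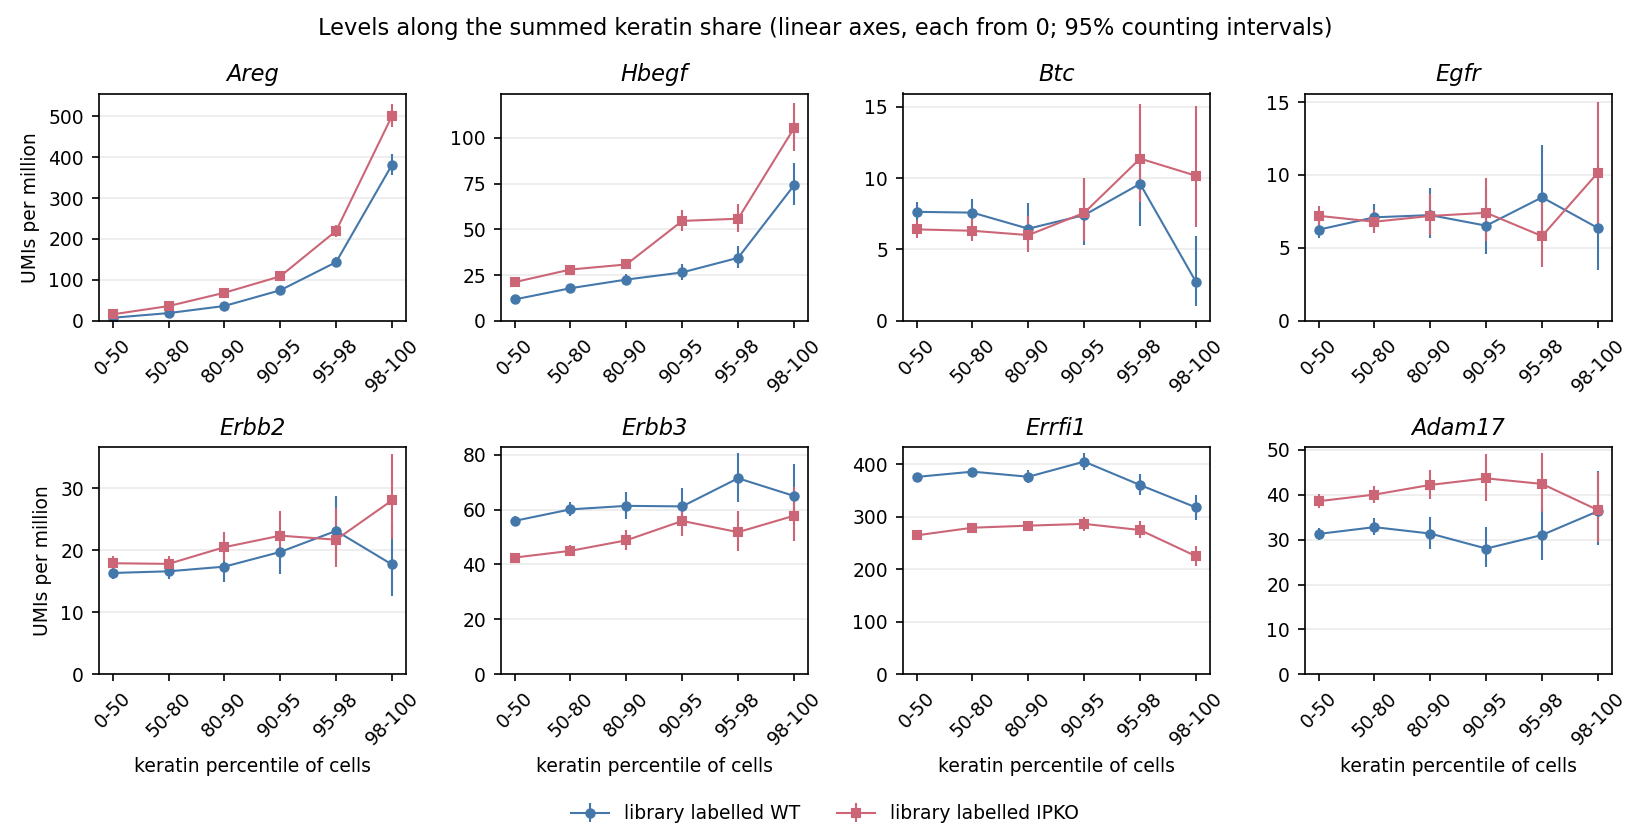
Level of each gene (CPM, linear axes from 0) in 6 bins of AT2, keratin-high and other epithelial cells ordered by summed keratin share, for both libraries with 95% counting intervals. Areg and Hbegf climb with keratin in both libraries, to 381 and 500.5 for Areg in the top 2%, while Egfr and Adam17 in the top 2% have intervals that overlap those of the lowest bin.

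The other ligands differed from Areg. Hbegf, a ligand that binds heparan sulphate on the cell surface, was at 15.1 and 26.4 CPM in AT2 cells and at 49.6 and 74.8 in keratin-high cells, 3.28-fold and 2.83-fold higher. Btc was low throughout, at 7.50 and 6.38 in AT2 cells and 6.96 and 10.9 in keratin-high cells. Its keratin-high level was lower than the AT2 level by a log2 value of -0.11 (-0.60 to 0.35) labelled WT and higher by 0.77 (0.40 to 1.13) labelled IPKO. That difference rests on 40 and 70 UMIs.

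Counting genes at least 1.5-fold higher in keratin-high than in AT2 cells, 2 of the 8 passed in the library labelled WT (Areg and Hbegf) and 3 in the library labelled IPKO (with Btc). Among all genes whose mean reached 5 CPM, the share was 11.3% (965 of 8545) and 9.31% (814 of 8747). None of the 8 was 1.5-fold lower, where the shares over all genes were 3.66% and 2.60%. By ratio Areg ranked 33 of 8545 genes and 79 of 8747. The median log2 ratio of the 8 was 0.23 and 0.33, beside 0.13 and 0.13 over all genes.

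The receptors and regulators were spread over both epithelial classes. Erbb3 was the most abundant receptor transcript, at 57.9 and 44.8 CPM in AT2 cells and 68.9 and 54.0 in keratin-high cells. Erbb2, its usual dimer partner, was at 16.7 and 18.4 in AT2 cells and 21.1 and 24.1 in keratin-high cells. Egfr was the lowest, at 6.61 and 7.11 in AT2 cells and 7.66 and 7.48 in keratin-high cells, so that a UMI was seen in 10.7% and 11.01% of AT2 cells against 62.9% and 52.0% for Erbb3. In AT2 cells the order Erbb3, Erbb2, Egfr held in both libraries with intervals that did not overlap.

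Errfi1 was far above the receptors it restrains. It stood at 380 CPM in AT2 cells labelled WT and 271 labelled IPKO, with a UMI in 97.3% and 93.5% of cells, and at 344 and 256 in keratin-high cells. Adam17 was at 31.6 and 39.8 in AT2 cells and 33.1 and 40.2 in keratin-high cells, within 0.07 on the log2 scale of each other in each library. From the most to the least abundant, AT2 cells labelled WT held Errfi1, Erbb3, Adam17, Erbb2, Areg, Hbegf, Btc and Egfr, in which the intervals of Erbb2 and Areg, of Areg and Hbegf and of Btc and Egfr overlapped. Labelled IPKO, the order was Errfi1, Erbb3, Adam17, Areg, Hbegf, Erbb2, Egfr and Btc, in which only Egfr and Btc overlapped. Both ligands had thus passed Erbb2 in that library.

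Receptor transcripts were found in AT2 cells with Areg at a share whose interval includes that of all AT2 cells. After thinning to 3000 UMIs, a UMI of Egfr, Erbb2 or Erbb3 was present in 22.6% (interval 17.1 to 28.9) of AT2 cells with Areg and in 22.5% (21.4 to 23.5) of all AT2 cells labelled WT. Labelled IPKO, the shares were 20.6% (17.1 to 24.5) and 19.6% (18.7 to 20.5). Keratin-high cells with Areg held such a UMI in 20.6% (13.2 to 29.7) and 24.7% (17.9 to 32.5), beside 24.1% and 23.4% of all keratin-high cells. Detection of the 2 ligands was compared as well: Hbegf was seen in 10.3% (7.73 to 13.3) of AT2 cells with Areg labelled IPKO and in 6.56% (5.97 to 7.18) of those without, while labelled WT the values were 5.29% (2.67 to 9.27) and 4.01% (3.52 to 4.54), whose intervals overlap. Among keratin-high cells Hbegf was seen in 18.6% (11.6 to 27.6) with Areg and 9.35% (5.80 to 14.1) without labelled WT, and in 21.9% (15.5 to 29.5) and 14.5% (10.2 to 19.6) labelled IPKO. Whether the libraries differ in this was not tested. At this depth most receptor transcripts of a cell go unseen, so these shares are lower limits.

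Outside the epithelium Areg, Btc and Erbb3 were low, with 0 to 8 UMIs in a library. Non-epithelial cells held 2 and 8 Areg UMIs, 3.36 (0.41 to 12.2) and 5.06 (2.19 to 9.98) CPM. Endothelial cells held none in 62 and 59 cells, which allows a share of cells with a UMI of up to 4.84% and 5.09% by the limit of 3 counts (upper ends of the exact 95% intervals 5.78% and 6.06%). Lymphocytes, among which innate lymphoid and regulatory T cells are known sources of Areg, held 0 UMIs in 17 cells and 5 in 97, or 8.51 CPM (2.76 to 19.9). Mesenchymal cells held 1 and 2 UMIs, at 12.5 (0.32 to 69.9) and 16.4 (1.99 to 59.2). Btc had 0 UMIs in either library, and Erbb3 had 2 and 3. Free AT2 RNA sets a background here: non-epithelial cells showed Sftpc at 1.92% and 1.93% of its AT2 level, and at that ratio AT2 RNA would give 0.188 and 1.03 Areg UMIs and 0.663 and 1.37 Erbb3 UMIs. The 2 and 8 Areg UMIs (0.24 to 7.22 and 3.45 to 15.8) lie above that level, and the 2 and 3 Erbb3 UMIs do not (0.24 to 7.22 and 0.62 to 8.77). Free RNA of keratin-high cells was not part of this background.

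Levels of Hbegf, Egfr, Errfi1 and Adam17 differed between lineages, on few cells. Hbegf in the library labelled WT had all of its 11 non-epithelial UMIs in endothelial cells, at 47.2 CPM (23.6 to 84.5), where AT2 RNA would give 0.173 over all non-epithelial cells, whereas the library labelled IPKO had 2 UMIs, at 8.49 (1.03 to 30.7). Egfr was in mesenchymal cells, with 2 UMIs in 15 cells (25.1 CPM) and 8 UMIs in 17 cells (65.6, interval 28.3 to 129). Errfi1 in mesenchymal cells was at 226 and 230 CPM, beside 34.3 and 34.6 in myeloid cells. Adam17, a sheddase also known for releasing tumour necrosis factor from macrophages, was at 108 (65.3 to 169) and 69.3 (50.3 to 93.0) in myeloid cells, where AT2 cells had 31.6 and 39.8, and at 37.6 (7.76 to 110.0) and 73.8 (33.7 to 140.0) in mesenchymal cells. It was at 51.5 (26.6 to 89.97) and 21.2 (6.89 to 49.5) in endothelial cells and at 9.35 (0.24 to 52.1) and 15.3 (7.005 to 29.1) in lymphocytes. The myeloid cells also carried lymphocyte markers, at a sum of 862.5 and 3534 CPM, beside 5930 and 7468 in lymphocytes. Ptprc is in both marker lists.

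Members were not counted against a fold bound here, since several reach a mean of 5 CPM only through AT2 cells. Set against AT2 cells, Areg in all non-epithelial cells differed by a log2 value of -2.29 (-5.34 to -0.44) and -2.73 (-3.95 to -1.75). Erbb2 differed by -1.31 (-3.19 to 0.04) and -2.86 (-4.74 to -1.50), from 4 UMIs in each library. Adam17 went the other way labelled WT, at 0.90 (0.37 to 1.38), and was at 0.09 (-0.28 to 0.44) labelled IPKO. Erbb3 was lower by a log2 value of -4.11 (-7.15 to -2.25) and -4.56 (-6.84 to -3.01), and Errfi1 by -2.53 (-3.03 to -2.08) and -2.48 (-2.82 to -2.15).

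Keratin-high cells below the Sftpc share of AT2 cells were a small mixed set of 33 and 52 cells. Areg there was at 263 (221 to 311) and 517 (458 to 583) CPM, beside 232 (219 to 245) and 310 (296 to 325) in the keratin-high cells with Sftpc, so that the intervals overlapped in the library labelled WT only. Egfr was higher, at 37.6 (23.0 to 58.1) and 22.8 (11.8 to 39.9) against 4.60 (2.95 to 6.85) and 6.11 (4.28 to 8.46), although 1 cell labelled WT gave 11 of its 20 UMIs. These cells were looked into after their values were seen. In the library labelled WT, 2 of them drew at least 5% of their UMIs from club cell genes and held no Areg. At least 3 of 5 ciliated cell markers were present in 3 cells labelled WT and 12 labelled IPKO, where Foxj1, the master regulator of motile cilia, stood at 748 and 715 CPM. All 3 and all 12 held Areg, at 294 (184 to 445) and 541 (448 to 648), with 22 and 118 UMIs. The 28 and 40 cells with neither set of markers held Areg at 386 (320 to 463) and 501 (425 to 586), with 118 of the 140 and 154 of the 272 UMIs. Most Areg UMIs of this set thus lay outside the ciliated-marker cells. However, only 12 of the 28 and 17 of the 40 cells held Areg, and single cells among them gave 37 and 41 UMIs. Errfi1 was at 80.1 (29.4 to 174) and 27.5 (10.1 to 59.8) in the ciliated-marker cells and at 390 (323 to 466) and 163 (121 to 214) in those with neither set.

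Of the other ligands of the family only Tgfa, transforming growth factor alpha, reached a mean of 5 CPM in AT2 cells, at 10.0 (9.47 to 10.6) labelled WT and 7.74 (7.26 to 8.25) labelled IPKO, and 12.9 and 10.9 in keratin-high cells. Tgfa was thus more abundant than Btc in AT2 cells of both libraries. Egf had 21 and 23 UMIs in all AT2 cells, Nrg2 20 and 22, Nrg1 11 and 8, Ereg 1 and 2, Nrg4 1 and 2, Epgn 0 and 4, and Nrg3 none. The receptor Erbb4 had 2 and 6. Neuregulin 1 (Nrg1), a ligand of ERBB3 and ERBB4, had 5 and 19 UMIs in keratin-high cells, all 5 and 17 of them in cells low in Sftpc, and 15 of the 17 came from the 12 cells with ciliated markers. Labelled WT, 1 of the 5 came from the 3 such cells and 4 from cells with neither set of markers. The 12 cells carried Nrg1 at 68.8 CPM (38.5 to 113), against 0.06 in AT2 cells of that library.

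Between the libraries, Areg and Hbegf were higher in AT2 cells labelled IPKO and the receptor Erbb3 and the inhibitor Errfi1 were lower. Areg was 2.05-fold higher, a log2 ratio of 1.03 (0.96 to 1.11), from 1913 and 4191 UMIs. Hbegf was 1.75-fold higher, 0.81 (0.72 to 0.89). Errfi1 differed by -0.48 (-0.50 to -0.46) and Erbb3 by -0.37 (-0.42 to -0.32), from 44151 and 33749 and from 6736 and 5574 UMIs. Adam17 was 1.26-fold higher, 0.33 (0.27 to 0.39), Btc differed by -0.23 (-0.37 to -0.09), Erbb2 by 0.13 (0.05 to 0.22) and Egfr by 0.10 (-0.04 to 0.25), an interval that includes 0.

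At 1.5-fold, 2 of the 8 genes passed, both higher and none lower. Of all 8491 genes whose mean reached 5 CPM, 3.36% passed in either direction, 1.80% higher and 1.55% lower. Areg ranked 33 and Hbegf 61 from the highest ratio, and Errfi1 ranked 8303 and Erbb3 8178. The median log2 ratio was 0.12 for the 8 genes and 0.06 for all genes. Errfi1 and Erbb3 did not reach 1.5-fold, at 1.40-fold and 1.29-fold lower.

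**Figure D4:**
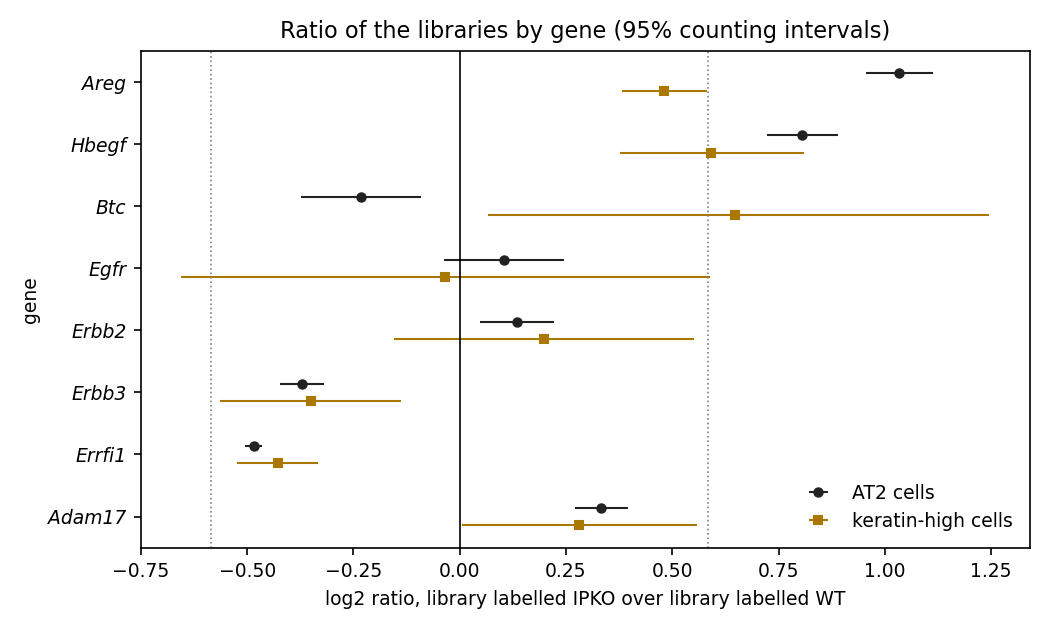
Log2 ratio of each gene, labelled IPKO over labelled WT, in AT2 cells (circles) and keratin-high cells (squares), with 95% counting intervals, a solid line at 0 and dotted lines at 1.5-fold either way. Areg stands at 1.03 in AT2 cells and 0.48 in keratin-high cells, and Erbb3 and Errfi1 lie below 0 in both classes.

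In keratin-high cells the differences had the same direction for 6 of the genes, while Btc and Egfr changed sides. Areg was higher by 0.48 (0.38 to 0.58), less than in AT2 cells. Hbegf was higher by 0.59 (0.38 to 0.81) and Btc by 0.65 (0.07 to 1.246), and these 2 passed 1.5-fold, where 8.38% of all genes passed in either direction (741 of 8842). Erbb3 differed by -0.35 (-0.56 to -0.14) and Errfi1 by -0.43 (-0.52 to -0.33). Egfr differed by -0.03 (-0.66 to 0.59). The median of the 8 genes was 0.24 and that of all genes 0.06. Airway markers in the class differed as well: club cell genes summed to 17692 CPM labelled WT and 1437 labelled IPKO (medians over cells 150 and 109), and Foxj1 had 57 and 171 UMIs. Of the Foxj1 UMIs, 56 and 156 lay in the 3 and 12 cells with ciliated markers described above. The part of airway cells in these differences was not tested.

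The same 2 libraries differed in 15 early-response genes, such as Fos, Jun and Egr1, which are switched on quickly by many stimuli, tissue dissociation among them. Summed, they stood at 3470 CPM in AT2 cells labelled WT and 6017 labelled IPKO. AT2 cells of both libraries, pooled, were therefore divided into 4 bins of equal size by this sum (bounds 2151, 4369 and 7018 CPM), and the same bounds were used for keratin-high cells. Of AT2 cells labelled WT, 36.9% fell in the lowest bin and 10.8% in the highest, against 14.8% and 37.2% labelled IPKO. Hbegf went with these genes: from the lowest to the highest bin it increased from 5.93 to 39.2 in the library labelled WT and from 9.40 to 39.4 in the library labelled IPKO.

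Within the bins the library difference of Hbegf was 0.66 (0.38 to 0.95), 0.32 (0.13 to 0.52), 0.10 (-0.05 to 0.25) and 0.00 (-0.15 to 0.16) on the log2 scale, against 0.81 in all AT2 cells. The intervals of the last 2 bins include 0. Areg differed by 0.73 (0.50 to 0.96), 1.09 (0.94 to 1.251), 0.53 (0.38 to 0.67) and 0.19 (0.03 to 0.34), so in the highest bin its levels were 36.5 and 41.5 CPM. Areg reached 1.5-fold in the 2 lowest bins and Hbegf in the lowest only, so neither did in the highest. Across the 4 bins, in the same order, the differences were -0.71, -0.60, -0.54 and -0.50 for Errfi1 and -0.41, -0.49, -0.48 and -0.47 for Erbb3. Errfi1 was thus past 1.5-fold lower in the 2 lowest bins, at 1.635-fold and 1.513-fold, and Erbb3 in none. Whether early-response level bears on these differences was not tested.

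**Figure D5:**
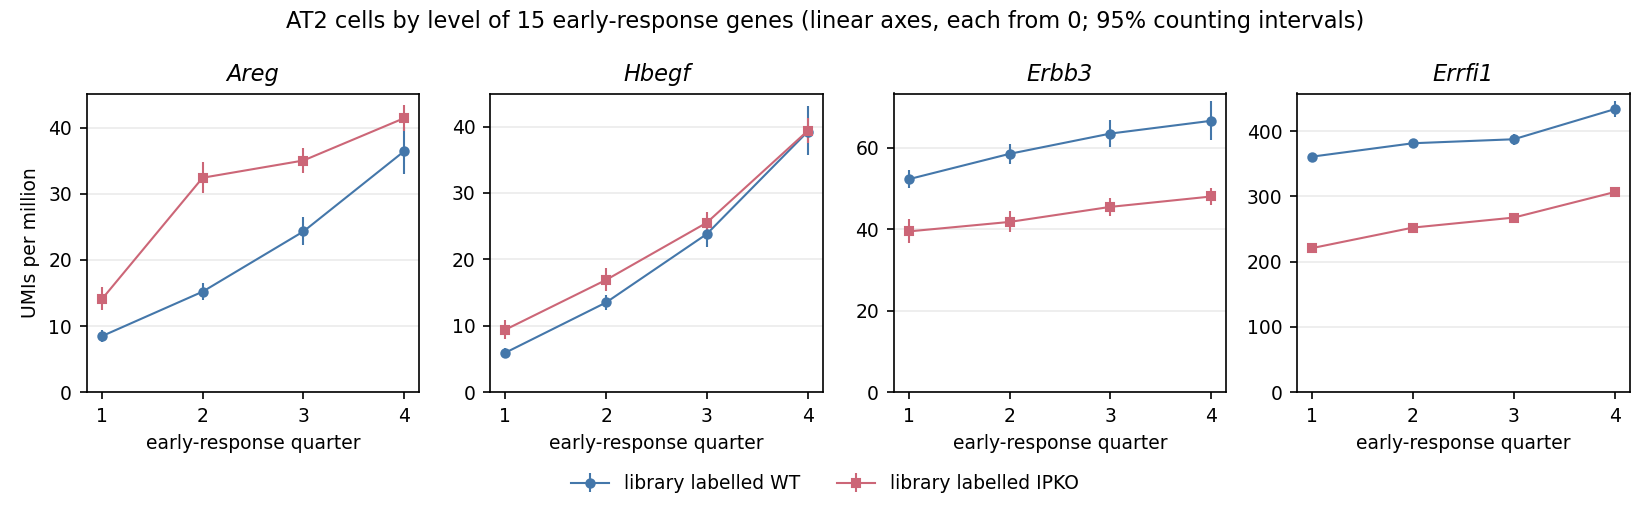
Level (CPM, linear axes from 0) of Areg, Hbegf, Erbb3 and Errfi1 in AT2 cells divided into 4 bins by 15 early-response genes, for both libraries with 95% counting intervals. The Hbegf curves meet at 39.2 and 39.4 in the highest bin, while Erbb3 and Errfi1 stay apart in every bin.

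The contrast between keratin-high and AT2 cells stayed large inside each bin. The Areg log2 ratio was 4.24, 3.53, 3.82 and 3.28 labelled WT and 4.65, 2.92, 3.23 and 3.15 labelled IPKO, from the lowest to the highest bin. Between the libraries, however, Areg in keratin-high cells differed by 1.14 (0.83 to 1.45), 0.49 (0.27 to 0.70), -0.06 (-0.24 to 0.11) and 0.06 (-0.13 to 0.26) in these bins. For Hbegf the contrast of keratin-high with AT2 cells was 2.33, 1.15, 1.81 and 1.07 labelled WT and 1.81, 1.95, 1.66 and 1.05 labelled IPKO.

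Other genes of the pathway were taken from lists of ligands, receptors, shedding factors, relay proteins, feedback inhibitors and targets. Of 56 genes, 40 were measured at a mean of at least 5 CPM in AT2 cells, of which 3 were at least 1.5-fold higher in the library labelled IPKO and none lower, beside 1.80% and 1.55% of all genes. These were the target Phlda1, at 112 and 234 CPM (log2 ratio 1.07, 1.04 to 1.099), the target Egr1, at 177 and 357 (1.01, 0.99 to 1.04), which is also among the 15 early-response genes, and the feedback inhibitor Spry1, at 80.1 and 123 (0.61, 0.58 to 0.65). The median of the 40 was -0.03. Between keratin-high and AT2 cells, 5 of 41 were higher and 1 lower labelled WT, and 4 of 39 higher and 1 lower labelled IPKO, near the shares of all genes (11.3% and 9.31% higher, 3.66% and 2.60% lower). Higher in both were Phlda1 (1.56 and 1.18 on the log2 scale), Ier3 (1.04 and 0.92), the cyclin gene Ccnd1 (0.87 and 0.76) and Timp3 (1.02 and 0.76), the tissue inhibitor that is known to block ADAM17. Myc, counted among the higher genes labelled WT, was at 0.387 CPM in AT2 cells and 11.1 in keratin-high cells, so it reached the mean of 5 CPM only through the class where it was high and had to be counted. Labelled IPKO it was at 0.635 and 9.35 and fell short of that mean. The lower genes were Plcg1 (-0.65, labelled WT) and Socs3 (-0.61, labelled IPKO).

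Across AT2 and keratin-high cells, the genes whose level went most with Areg were Krt8, Lgals3, Anxa5, Ndnf and Krt18, with Pearson r between 0.13 and 0.19 in 6413 cells labelled WT and 7439 labelled IPKO, out of 2604 genes compared. Each cell was thinned to 3000 UMIs before these correlations were taken. They are weak and are given only as a description. No gene reached r of 0.1 in both libraries with any of the other 7.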

How the data were processed

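The authors deposited raw UMI counts per gene and cell for 2 libraries of 10x Chromium 3′ v3.1 chemistry sequenced on a NovaSeq 6000, made with Cell Ranger 4.0.0 and the GRCm38 (mm10) build, per the submitters' processing notes and the labels' protocols. Barcodes with under 500 genes or over 20% mitochondrial UMIs were left out. No doublet caller was run. Barcodes with at least 4 markers of another lineage and at least 10% Sftpc (15 and 46) were set aside. Counts were summed per class and library and divided by the class total (CPM). Intervals are 95% (exact Poisson, Clopper-Pearson or conditional binomial) and cover counting error only. With 1 library per genotype no differential test was run. A gene was called at 1.5-fold and a mean of at least 5 CPM. Shares of cells with a UMI were also computed after thinning to 3000 UMIs, leaving out 18 and 18 shallower AT2 cells. Genes outside the 8 were named where past 1.5-fold in a pathway list, or among the 5 with the largest lower r with a gene. Myc labelled IPKO and the cells with club or ciliated markers were named after their values were seen. The members and lists were chosen with earlier results of these data known. The interval method was tested on simulated counts. The effects of 21 other settings, and of 3 more chosen after seeing the data, are given at the end. Python 3.11.15 (numpy 2.4.6, scipy 1.17.1, pandas 2.3.3) and, for an alternative scaling, edgeR 4.0.16 were used.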

Additional observations from a re-analysis of the deposited data

Results flagged for a closer look

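Btc stood on opposite sides between keratin-high and AT2 cells in the 2 libraries, at a log2 ratio of -0.1074 labelled WT and 0.7721 labelled IPKO, from 40 and 70 UMIs in keratin-high cells. Seen the other way, its ratio of IPKO over WT was -0.2322 in AT2 cells and 0.6473 in keratin-high cells. Hbegf in non-epithelial cells over AT2 cells was at 0.2924 labelled WT and -4.383 labelled IPKO, from 11 and 2 UMIs, all in endothelial cells. Endothelial cells were 62 of the 113 and 59 of the 250 non-epithelial cells, so the make-up of the class differed. In endothelial cells alone the ratio was 1.644 (0.639 to 2.487) and -1.637 (-4.683 to 0.217). The 3 pairs above came up because the signs were opposite and the counting intervals did not overlap. None of the 3 differences was tested across samples, since there is 1 library per genotype.

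Barcodes left out for a high mitochondrial share, which no comparison uses, also held ligand transcripts. Areg was at 16.83 and 34.06 CPM there (50 and 74 UMIs) and Hbegf at 14.48 and 25.31 CPM (43 and 55 UMIs), labelled WT and IPKO. These levels lie near those of the AT2 cells, at 16.5 and 33.7 for Areg and 15.1 and 26.4 for Hbegf. However, all are shares of totals that include mitochondrial UMIs. The median mitochondrial share was 77.25% and 72.08% in these barcodes, against 5.265% and 3.911% in AT2 cells. The median Sftpc share was 3.137% and 3.600%, against 21.09% and 20.87%. The likeness therefore holds for these totals only, and levels without mitochondrial UMIs were not compared.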

How the results depend on the processing

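Between the libraries, all 8 genes kept their direction in AT2 cells under the 14 other settings of filters, classes and scaling. The Erbb2 log2 ratio was 0.07 (-0.02 to 0.16) with median-of-ratios scaling and 0.08 (-0.01 to 0.17) with TMM scaling, intervals that include 0. The Areg log2 ratio (1.03) ranged from 0.8477, with keratin-high cells put back among AT2 cells, to 1.137, with the top 10% as keratin-high, and Hbegf from 0.68 to 0.86. Within bins of early-response genes, an alternative chosen after seeing the data, the Areg ratio was 0.7311, 0.5277 and 0.1853 in the lowest, the next to highest and the highest bin. Egfr kept its direction in 16 of 18 when these were added, with -0.27 and -0.12 in the 2 higher bins. The Erbb2 interval included 0 in every such bin. The number of the 8 past the threshold was 5 at a looser fold bound and 1 at 2-fold, against 2, beside 13.6%, 0.754% and 3.36% of all genes. Other scalings moved the median of all genes by -0.06 at most.

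Areg in keratin-high over AT2 cells, labelled WT and IPKO, was 3.949 and 3.389 with Sftpc of at least 20%, 3.190 and 2.824 with keratin-high cells among AT2 cells, 4.254 and 3.669 with the top 2%, 3.522 and 2.873 with the top 10%, and 3.643 and 3.173 without Krt18. It was 4.241 and 4.653, 3.526 and 2.918, and 3.276 and 3.152 in the lowest, second and highest early-response bin. With keratin-high cells of at least 10% Sftpc, also chosen after seeing the data, the value labelled IPKO was 3.203. The cause of these shifts was not tested. Shares of cells with a UMI moved with the depth of thinning, as 31 of 32 were higher when cells were thinned less and 0 when they were thinned more. With a mean of at least 1 CPM, 4.82% of all genes passed 1.5-fold. No paired analysis was possible because each genotype has 1 library. Non-epithelial values rest on 15 to 97 cells per lineage and, for most of the 8 genes, on few UMIs.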
